A study of Homo sapiens with 3 samples.

Results

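The heat shock proteins and the J-domain proteins that feed them were followed as 1 group of genes through 3 RNA-seq libraries of MIAPaCa-2 cells. Members were taken by symbol from the deposited table: the numbered HSPA, HSPB, HSPD, HSPE and HSPH genes, every HSP90A gene, the numbered DNAJA, DNAJB and DNAJC genes, the CCT genes from CCT2 to CCT8 that carry no letter after the digit, and TCP1, HSF1 and BAG3. The endoplasmic reticulum genes HSPA5, DNAJB9, DNAJB11 and DNAJC3 were left out by the same rule. The rule found 65 of the 14949 genes listed, of which 63 were annotated as protein coding. 64 of them had a plain symbol in the table, and 1, DNAJC18, had a cell that also held the gene identifier.

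MIAPaCa-2 is an established human pancreatic cancer line, labelled as epithelial cells of the pancreas. The groups were sh-CTL, cells with a control short hairpin and no treatment; sh-METTL3, cells with a hairpin against the m6A methyltransferase METTL3 (METTL3-KD) and no treatment; and sh-CTL + PLK1i, control-hairpin cells exposed for 24 h to 80 nM NMS-P937, which inhibits the mitotic kinase PLK1 (PLK1i). All cells therefore carried a hairpin, METTL3-KD was represented by 1 hairpin line, and no inhibitor was given to METTL3-KD cells. With 1 library for each group nothing was replicated, so no p-value was computed and the spread between cultures was not measured.

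Heat shock proteins are molecular chaperones, which hold unfolded proteins, help them fold and keep them from clumping. HSP70 proteins bind and release short stretches of unfolded protein in a cycle driven by ATP; J-domain proteins (the DNAJ families) bring clients and trigger ATP hydrolysis, and HSP110 proteins and BAG3 reload HSP70 with fresh nucleotide. HSP90 acts later on kinases and hormone receptors, HSP60 with HSP10 folds proteins inside mitochondria, the CCT ring folds actin and tubulin, and HSF1 is the transcription factor that switches on the stress-inducible members. Cancer cells commonly carry high levels of these proteins.

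The targeted gene was checked first. METTL3 had 3378 reads in sh-CTL, 1781 in METTL3-KD and 4223 in PLK1i, so that normalized METTL3 was 41.9% of sh-CTL in METTL3-KD and 98.7% in PLK1i. The labels thus matched the targeted gene. Reads in listed genes came to 37449352, 46944892 and 47727493 in the same order, and the chaperone genes took 2.37%, 2.50% and 2.30% of them. Of the epithelial markers, KRT8, KRT18 and KRT19 were read in every library, with 3361 to 124197 reads, whereas EPCAM and CDH1 were not listed. None of the acinar, endocrine and endothelial markers looked for was listed, nor were PTPRC, DCN and PDGFRB. COL1A2 had 44101 to 44493 reads, COL1A1 had 34, 6 and 36, and CD68 had 1505, 3499 and 2875. After scaling, COL1A2, which lies on chromosome 7, was lower by 0.33 on the log2 scale in both METTL3-KD and PLK1i, and COL1A1 stood at -2.63 and -0.25. The keratins were higher in METTL3-KD, by 0.26 to 0.43 on the log2 scale, and CD68 was higher in both, by 0.89 and 0.59. The part of these in the chaperone values was not tested.

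Differences below are those of log2(normalized count + 1), METTL3-KD or PLK1i minus sh-CTL, where the normalized count is the recovered read number divided by the size factor of the library. The range in brackets is an exact 95% interval of the ratio of reads between 2 libraries. It covers counting error only and compares libraries, not conditions. Where 3 read numbers are given they are in the order sh-CTL, METTL3-KD and PLK1i, and where 2 differences are given METTL3-KD comes first. A gene was called higher or lower at a log2 difference of at least 0.32 in size. Both comparisons use the same sh-CTL library, so an unusual value there enters both. In bulk RNA, fewer cells that express a gene and less of its RNA per cell cannot be told apart.

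Most chaperone genes stood close to sh-CTL in both libraries. In 50 of the 65 the difference stayed under 0.32 in both comparisons. In METTL3-KD, 5 were called higher, 7.69% of the members against 15.8% of all genes, and 6 were called lower, 9.23% against 14.5%. In PLK1i, 1 was called higher, 1.54% against 10.2%, and 4 were called lower, 6.15% against 11.5%. At 2-fold, no member was higher and 1 was lower in METTL3-KD, where 3.42% and 2.94% of all genes were called, and none was called in either direction in PLK1i, where 1.39% and 1.13% were. Every count of called genes in a family or list below is to be read beside the all-gene shares at 0.32.

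Values that rest on few reads are less certain, and 52 of the 65 members had a mean normalized count of at least 500. Among these 52, 1 was higher and 4 were lower in METTL3-KD, against 6.9% and 9.35% of all genes at that level. In PLK1i 1 was higher and 2 were lower, against 3.7% and 4.31%. The median difference over all members was -0.01 in METTL3-KD and 0.01 in PLK1i, and that over all listed genes was 0.00 in both. Without regard to sign, the median difference was 0.146 for the members and 0.184 for all genes in METTL3-KD, and 0.0698 and 0.146 in PLK1i, on the log2 scale. At a mean normalized count of at least 500 these were 0.128 and 0.134 in METTL3-KD, so the members hardly differed from all genes there. In PLK1i they were 0.0666 and 0.106. The depth resolved small differences, since 41 of the 65 intervals excluded 0 in METTL3-KD and 30 did in PLK1i. The like share over all genes was not computed, so these counts describe the depth and not the members.

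**Figure D1:**
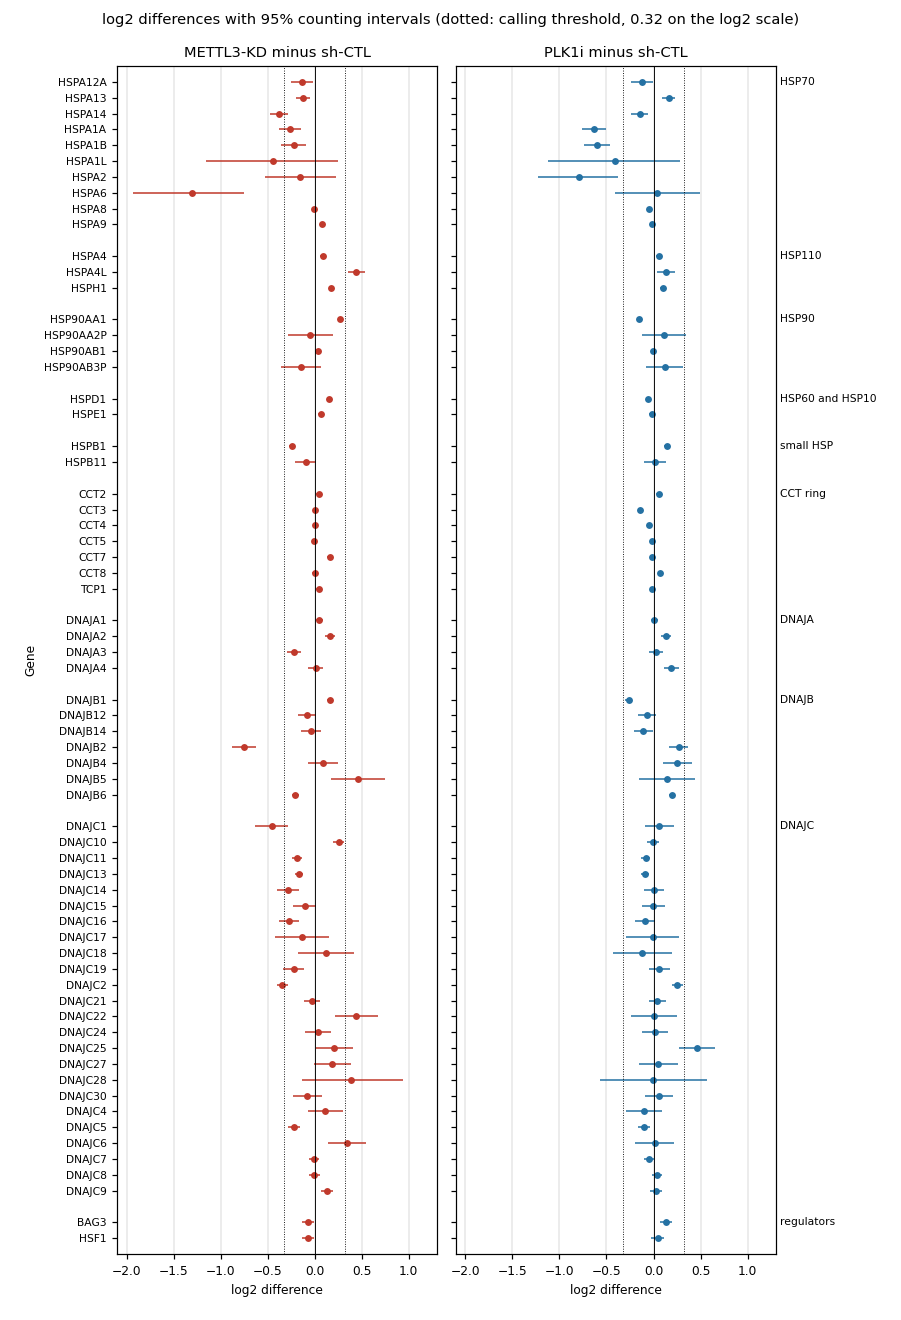
The log2 difference from sh-CTL of each of the 65 genes (rows, grouped by family) in METTL3-KD (left, red) and PLK1i (right, blue); lines are 95% counting intervals, dotted lines mark the threshold of 0.32, and each library is 1 sample. HSPA6 and DNAJB2 stand lowest on the left at -1.31 and -0.75, and HSPA2, HSPA1A and HSPA1B stand lowest on the right at -0.79, -0.63 and -0.60.

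Per transcript length, the cells' chaperone RNA was dominated by a few members. HSPA8, the constitutive cytosolic HSP70, reached 3898 TPM in sh-CTL and ranked 20 among all listed genes. TPM is here a length-scaled share of the reads of the listed genes with an annotated length, not of all transcripts. The cytosolic HSP90 genes HSP90AB1 and HSP90AA1 followed at 3175 and 2805 TPM, then HSPD1 at 1549, HSPB1 at 1514 and HSPE1 at 1249. The CCT ring genes lay between 391.5 TPM (CCT2) and 923 TPM (CCT3). Among J-domain genes DNAJA1, DNAJB1 and DNAJB6 were the most abundant, at 299, 296 and 283 TPM. The stress-inducible HSP70 genes lay far lower, HSPA1A at 27.4 TPM, HSPA1B at 21.5 and HSPA6 at 1.87. These TPM levels rest on annotated lengths, so neighbours in this order that differ by little cannot be ranked with 1 library.

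**Figure D2:**
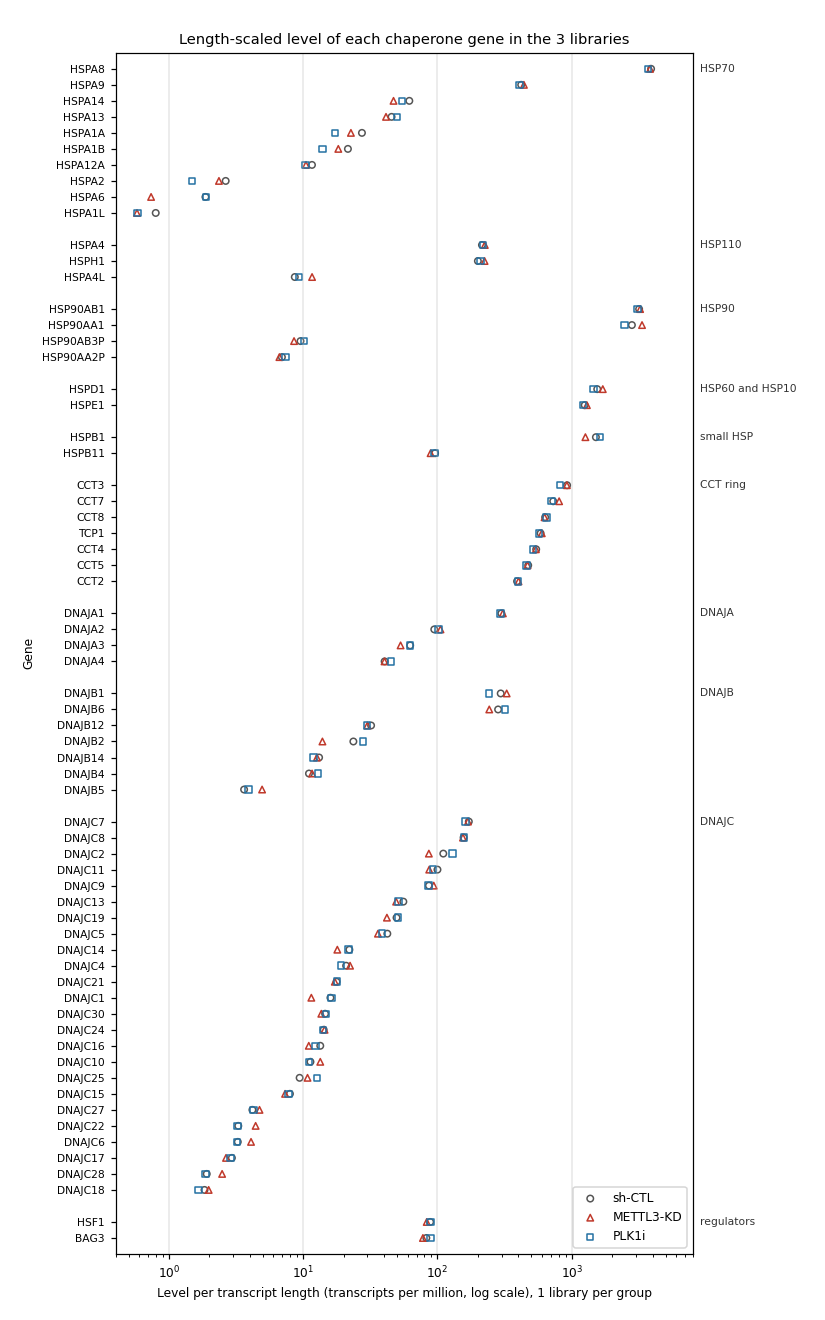
Level per transcript length (TPM, log scale) of the 65 genes, grouped by family and ordered by their level in sh-CTL (circles), with METTL3-KD (triangles) and PLK1i (squares); 1 library per group, no error shown. The 3 marks of a gene lie close together against the span from HSPA1L at 0.797 TPM to HSPA8 at 3898 TPM in sh-CTL.

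Most of the HSP70 genes kept by the symbol rule stood below sh-CTL in both libraries. HSPA5, the HSP70 of the endoplasmic reticulum that the rule left out, stood above it in both, at 0.19 and 0.16. Of the 10 members, 9 stood below 0 in METTL3-KD, with a family median of -0.19, where all listed genes had one of 0.00. The 9 include the near-identical HSPA1A and HSPA1B, and HSPA2, whose interval included 0. The threshold was passed upward by 0 members and downward by 3 (HSPA6, HSPA14 and HSPA1L), where 14.5% of all genes were called lower. Of these, HSPA14 lost its call against its neighbours and the interval of HSPA1L included 0. In PLK1i 8 stood below 0, HSPA1L and HSPA9 within counting error, and the family median was -0.14 against 0.00 over all listed genes. There 0 were called higher and 4 lower (HSPA1A, HSPA1B, HSPA1L and HSPA2), where 11.5% of all genes were called lower. The family's summed normalized count, which is nearly all HSPA8 and HSPA9, was 99.8% and 96.9% of sh-CTL. HSPA8 itself lay slightly below sh-CTL in both, but its METTL3-KD value turned to 0.01 under upper-quartile scaling. Every called member was less abundant per length than HSPA8 and HSPA9.

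The clearest low values after PLK1i were those of the stress-inducible pair HSPA1A (ENSG00000204389, GRCh37 chr6:31783320-31785723) and HSPA1B (ENSG00000204388, GRCh37 chr6:31795515-31798031), which lie next to each other and encode the same cytosolic HSP70. HSPA1A had 1134 reads in sh-CTL, 1192 in METTL3-KD and 928 in PLK1i. HSPA1B had 935, 1007 and 781. Against the deeper sequencing of both other libraries, this put HSPA1A at -0.26 (-0.38 to -0.14) in METTL3-KD and -0.63 (-0.76 to -0.50) in PLK1i, and HSPA1B at -0.22 (-0.35 to -0.09) and -0.60 (-0.74 to -0.46). sh-CTL was thus the highest of the 3 libraries for both genes and PLK1i the lowest. Because the copies are nearly identical, the division of reads between them is uncertain, and the sum is the safer quantity. Together they stood at 84.5% of sh-CTL in METTL3-KD, -0.24 (-0.33 to -0.16), and at 65.2% in PLK1i, -0.62 (-0.71 to -0.52). HSPA1A took 54.8%, 54.2% and 54.3% of the pair's reads in sh-CTL, METTL3-KD and PLK1i.

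The start regions of both genes are shown because the genes are near copies and so are these regions. Since the division of reads between the genes is uncertain, their like differences are not 2 separate observations. Each run holds 250 bases before and 50 bases from the annotated start, from RefSeq on GRCh38.p14, a later build than the hg19 of the expression data: HSPA1A at chr6:31815293-31815592 and HSPA1B at chr6:31827488-31827787, both on the + strand. Capitals mark a pair of adjoining heat shock element units, where 1 unit is NGAAN and the next is its inverse NTTCN, in either order. The first capital lies at position -106 in HSPA1A and -105 in HSPA1B, counted from the start.
HSPA1A: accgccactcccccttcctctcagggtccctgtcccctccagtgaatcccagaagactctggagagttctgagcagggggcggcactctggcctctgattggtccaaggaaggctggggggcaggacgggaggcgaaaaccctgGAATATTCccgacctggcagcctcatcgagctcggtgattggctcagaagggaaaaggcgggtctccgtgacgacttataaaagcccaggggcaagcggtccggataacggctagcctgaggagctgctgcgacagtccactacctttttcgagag
HSPA1B: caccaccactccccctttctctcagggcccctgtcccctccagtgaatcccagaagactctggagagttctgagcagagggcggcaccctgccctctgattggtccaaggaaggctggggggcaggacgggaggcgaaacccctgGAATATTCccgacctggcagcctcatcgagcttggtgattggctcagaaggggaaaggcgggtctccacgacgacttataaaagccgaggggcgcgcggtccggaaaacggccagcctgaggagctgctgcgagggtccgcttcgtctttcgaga
Aligned, the 2 windows had 277 identical bases in 301 columns, or 92.0%.

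HSPA6 (ENSG00000173110, GRCh37 chr1:161494330-161496684), a strictly stress-inducible cytosolic HSP70, was the member furthest from sh-CTL in METTL3-KD. It had 76 reads in sh-CTL, 38 in METTL3-KD and 99 in PLK1i. The difference was -1.31 (-1.93 to -0.75) in METTL3-KD and 0.04 (-0.41 to 0.49) in PLK1i. The METTL3-KD library was thus the low one, and the other pair was alike within counting error. At this level the value rests on few reads.

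HSPA8 (ENSG00000109971, GRCh37 chr11:122928197-122933938) had 152282, 190191 and 186588 reads, the largest chaperone HSP70 pool in each library, and differed from sh-CTL by -0.01 and -0.05. HSPA1A and HSPA1B together amounted to 1.34%, 1.14% and 0.908% of the reads of all 3 genes in sh-CTL, METTL3-KD and PLK1i. The inducible share of these cytosolic HSP70 reads was therefore lowest in PLK1i, whose interval (0.865% to 0.951%) did not meet that of sh-CTL (1.28% to 1.40%).

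The start regions of HSPA6 (chr1:161524290-161524589, + strand) and HSPA8 (chr11:123062087-123062386, - strand) are set side by side as the strictly inducible and the constitutive form. Both runs are from RefSeq on GRCh38.p14 and read in the direction of the gene. Capitals mark 3 adjoining heat shock element units, at -74 in HSPA6 and at -230 and -55 in HSPA8.
HSPA6: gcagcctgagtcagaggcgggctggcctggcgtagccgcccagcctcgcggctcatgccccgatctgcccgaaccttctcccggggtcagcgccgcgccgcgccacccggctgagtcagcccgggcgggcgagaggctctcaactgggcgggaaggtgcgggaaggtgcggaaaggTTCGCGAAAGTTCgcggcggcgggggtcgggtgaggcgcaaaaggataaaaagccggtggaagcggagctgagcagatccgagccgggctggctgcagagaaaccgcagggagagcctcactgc
HSPA8: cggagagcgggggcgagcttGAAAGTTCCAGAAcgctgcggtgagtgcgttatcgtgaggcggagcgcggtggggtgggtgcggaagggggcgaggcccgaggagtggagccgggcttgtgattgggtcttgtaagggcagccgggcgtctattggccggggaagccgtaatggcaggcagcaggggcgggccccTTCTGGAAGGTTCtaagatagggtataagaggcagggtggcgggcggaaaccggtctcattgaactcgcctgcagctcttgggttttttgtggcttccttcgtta
Both forms thus held the full element in this window. Such a match is a run of letters and does not show binding.

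HSPA2, best known from the testis, had 114, 129 and 83 reads in sh-CTL, METTL3-KD and PLK1i. Its difference was -0.15 (-0.53 to 0.22) in METTL3-KD and -0.79 (-1.22 to -0.38) in PLK1i, the lowest value of any member there. HSPA1L, a germ cell form that lies beside HSPA1A on the opposite strand, had 38, 35 and 36 reads. It passed the threshold in both comparisons, at -0.44 (-1.15 to 0.25) and -0.41 (-1.12 to 0.28), but both intervals included 0.

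HSPA14, a ribosome-associated HSP70, had 1876, 1817 and 2144 reads and stood at -0.38 (-0.47 to -0.28) in METTL3-KD and -0.15 in PLK1i. Its neighbours on chromosome 10 were low by a like amount in METTL3-KD, with a median of -0.45 over the 50 nearest listed genes. Relative to them HSPA14 stood at 0.07, so its call was lost and its direction turned. It also overlaps ENSG00000284024 on the same strand, which had 970, 772 and 1467 reads, so the division of reads between them is uncertain.

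The remaining HSP70 members stayed under the threshold. HSPA9, the mitochondrial HSP70 mortalin, had 31942, 42494 and 40104 reads and differed by 0.08 and -0.01. HSPA13, an HSP70 of the microsome, had 3098, 3577 and 4386 reads and differed by -0.12 and 0.16. HSPA12A, a distant relative, was at -0.13 and -0.12.

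The 3 HSP110 genes among the members, whose proteins exchange nucleotide on HSP70, stood above sh-CTL in both comparisons. HYOU1, the HSP110 of the endoplasmic reticulum, falls outside the symbol rule and was at -0.24 and 0.00. HSPA4L (ENSG00000164070, GRCh37 chr4:128702976-128761888) had 1585 reads in sh-CTL, 2706 in METTL3-KD and 2197 in PLK1i. It was called higher in METTL3-KD at 0.44 (0.35 to 0.53) and lay at 0.13 (0.04 to 0.22) in PLK1i. HSPH1, the heat-inducible HSP105, had 18096, 25770 and 24542 reads and differed by 0.18 and 0.10. HSPA4 was at 0.08 and 0.06. The class median was 0.18 in METTL3-KD and 0.10 in PLK1i, with 3 of 3 members above 0 in each, and HSPA4L was the only member of the class past the threshold.

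**Figure D3:**
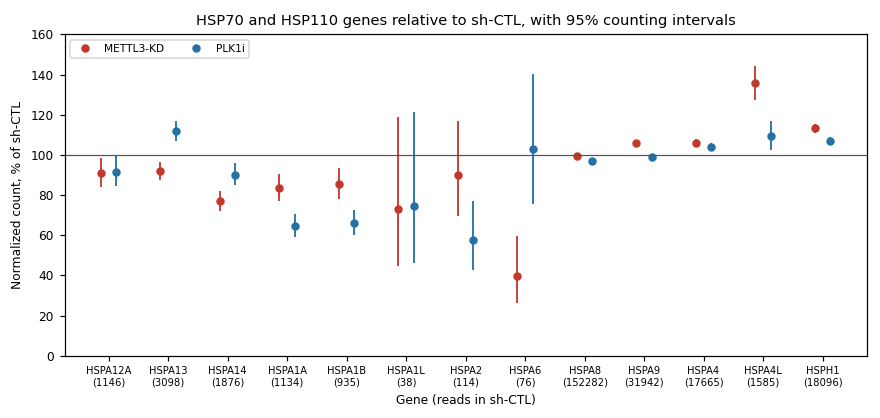
Normalized count of the HSP70 and HSP110 genes as a percent of sh-CTL (grey line at 100) in METTL3-KD (red) and PLK1i (blue), with 95% counting intervals and the reads in sh-CTL under each name; 1 library per group. HSPA1A and HSPA1B lie at 64.6% and 66.0% in PLK1i, HSPA6 at 39.7% in METTL3-KD, and HSPA8 and HSPA9 lie near 100 in both.

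Of the cytosolic HSP90 genes, the inducible one stood on opposite sides of sh-CTL in the 2 comparisons and the constitutive one stayed near it. HSP90AA1 (ENSG00000080824, GRCh37 chr14:102547079-102606036), the inducible form, had 156260 reads in sh-CTL, 236109 in METTL3-KD and 177751 in PLK1i. Its difference was 0.26 (0.25 to 0.27) in METTL3-KD and -0.16 (-0.16 to -0.14) in PLK1i, under the threshold in both. HSP90AB1, the constitutive form, had 139982, 180819 and 176168 reads and differed by 0.04 and -0.01. HSP90AA1 therefore supplied 52.7% of the reads of this pair in sh-CTL, 56.6% in METTL3-KD and 50.2% in PLK1i, and the 3 intervals did not meet. HSP90AA1 reached 3338 TPM in METTL3-KD and 2465 TPM in PLK1i. As the most read member it raised the summed HSP90 count to 111.8% of sh-CTL in METTL3-KD, against 94.3% in PLK1i.

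A HSP90AA1 start region (RefSeq, GRCh38.p14, chr14:102086995-102087294, - strand, read in the direction of the gene) is shown as that of the most abundant inducible member. RefSeq has 2 start windows for this gene, and the one with the most matches to 3 adjoining units was chosen. The other, chr14:102139700-102139999, held neither 3 nor 2 adjoining units. Capitals again mark 3 adjoining heat shock element units, from position -88.
HSP90AA1: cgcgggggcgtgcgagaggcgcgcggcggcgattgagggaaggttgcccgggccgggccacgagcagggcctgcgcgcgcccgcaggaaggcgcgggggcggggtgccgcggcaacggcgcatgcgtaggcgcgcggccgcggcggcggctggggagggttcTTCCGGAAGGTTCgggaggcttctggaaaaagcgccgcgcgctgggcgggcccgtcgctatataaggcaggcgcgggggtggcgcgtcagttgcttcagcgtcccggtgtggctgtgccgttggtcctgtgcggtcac
RefSeq start windows were found for 57 of the 65 members. The 3-unit element, searched on both strands, was present in 7 of these 57 (12.3%): HSPA6, HSPA8, HSP90AA1, HSP90AB1, HSPD1, DNAJA1 and DNAJB6. Counted by window, it was in 7 of their 78 start windows (8.97%) and in 172 of all 35116 of the same length (0.490%). The 2-unit form, which also lies inside every 3-unit match, was present in 21 members (36.8%), that is in 28.2% of their windows against 13.5% of all windows. Of the 7 members with 3 units, HSPA6 alone was called in METTL3-KD, on 76 reads in sh-CTL and 38 in METTL3-KD, and none was called in PLK1i. Of all genes, 15.8% were called higher and 14.5% lower in METTL3-KD, and 10.2% and 11.5% in PLK1i. A set of 7 genes is too small to be told apart from these shares.

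The HSP90 pseudogene transcripts HSP90AA2P and HSP90AB3P were listed too. HSP90AA2P had 263, 320 and 361 reads and differed by -0.05 (-0.29 to 0.19) and 0.12 (-0.12 to 0.35). HSP90AB3P had 358, 407 and 492 reads and differed by -0.15 and 0.12. All of these lay within counting error of sh-CTL, and reads from the parent genes could be among them.

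HSPD1 and HSPE1 encode HSP60 and HSP10, the barrel and lid of the mitochondrial folding chamber, and share a start region. HSPD1 had 59986, 83782 and 72855 reads and differed by 0.15 (0.14 to 0.17) in METTL3-KD and -0.06 in PLK1i. HSPE1 had 12005, 15825 and 15042 reads and differed by 0.07 and -0.02. Both genes were thus slightly above sh-CTL in METTL3-KD, and in PLK1i HSPD1 was slightly below it while HSPE1 lay within counting error. A readthrough transcript, HSPE1-MOB4, lies on the strand of HSPE1, with 188 to 276 reads.

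HSPB1, the small heat shock protein HSP27, had 20293, 21521 and 28300 reads. It stood at -0.25 (-0.27 to -0.22) in METTL3-KD and 0.14 (0.11 to 0.17) in PLK1i. HSPB1 lies on chromosome 7, whose 632 listed genes had a median of -0.25 in METTL3-KD, and its 50 nearest genes had a median of -0.33. Its low value in METTL3-KD was no lower than that of its surroundings, and with the neighbour median subtracted it turned to 0.09. HSPB11, a cilium transport protein that carries the family name, was at -0.10 and 0.02.

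The CCT ring, the chamber that folds actin and tubulin, was close to sh-CTL as a set. None of its 7 members was called in either comparison, and the medians were 0.01 in METTL3-KD and -0.01 in PLK1i. CCT7 was highest in METTL3-KD, with 23200, 32603 and 29098 reads and a difference of 0.16 there against -0.01 in PLK1i. CCT3 was lowest in PLK1i, with 31500, 39847 and 36076 reads and differences of 0.01 and -0.15. TCP1, CCT2, CCT4, CCT5 and CCT8 lay between 0.00 and 0.05 in METTL3-KD and between -0.05 and 0.07 in PLK1i. The subunit gene CCT6A falls outside the symbol rule and was looked at after the values were seen. It lies on chromosome 7, had 31465, 32410 and 38913 reads, and stood at -0.29 and -0.03.

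The DNAJA genes encode the J-domain proteins closest to the bacterial DnaJ, and none of the 4 was called. DNAJA1, a main partner of cytosolic HSP70, had 11967, 15596 and 15242 reads and differed by 0.05 and 0.01, and the first turned to -0.03 against its neighbours. DNAJA2, its cytosolic relative, was at 0.17 and 0.13. DNAJA3, which works in mitochondria, was at -0.22 and 0.03. DNAJA4 was at 0.01 and 0.19.

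DNAJB1, the heat-inducible HSP40 that drives HSP70 in disaggregation, stood on the same sides of sh-CTL as HSP90AA1. It had 11443 reads in sh-CTL, 16098 in METTL3-KD and 12096 in PLK1i. Its difference was 0.16 (0.13 to 0.20) in METTL3-KD and -0.26 (-0.30 to -0.22) in PLK1i. The value in METTL3-KD was close to the median of its neighbours on chromosome 19, 0.18, and turned to -0.01 when that was subtracted. Neither comparison passed the threshold. Of the summed reads of DNAJB1 and DNAJA1, DNAJB1 supplied 48.9%, 50.8% and 44.2% in sh-CTL, METTL3-KD and PLK1i.

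DNAJB2 (ENSG00000135924, GRCh37 chr2:220144064-220151620), a J-domain protein with ubiquitin-interacting motifs that passes clients to the proteasome, was the lowest in METTL3-KD of the 52 members whose normalized counts averaged 500 or more. It had 1253 reads in sh-CTL, 936 in METTL3-KD and 1909 in PLK1i. The difference was -0.75 (-0.88 to -0.63) in METTL3-KD, while that in PLK1i was 0.27 (0.16 to 0.37). METTL3-KD was thus the lowest library and PLK1i the highest. Its 50 nearest genes had a median of -0.01 in METTL3-KD.

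DNAJB5 had 166, 287 and 232 reads and was called higher in METTL3-KD at 0.46 (0.18 to 0.74), with 0.14 (-0.15 to 0.44) in PLK1i. DNAJB6, a suppressor of polyglutamine aggregation, had 12148, 13258 and 17663 reads and stood at -0.21 and 0.20. It lies on chromosome 7, and its neighbours had a median of -0.23 in METTL3-KD, against which it turned to 0.02. DNAJB4, a heat-inducible relative of DNAJB1, had 553, 741 and 835 reads and was at 0.09 (-0.07 to 0.25) and 0.25 (0.10 to 0.41). DNAJB12 and DNAJB14, both in the endoplasmic reticulum membrane, were at -0.08 and -0.04 in METTL3-KD and at -0.07 and -0.11 in PLK1i. In PLK1i no DNAJB gene passed the threshold.

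The DNAJC genes share little beyond the J domain and act at specific sites in the cell. Of the 24 listed, 3 were higher and 2 lower in METTL3-KD, and 1 was higher and 0 lower in PLK1i, with medians of -0.02 and 0.01. Of all genes, 15.8% were called higher and 14.5% lower in METTL3-KD, and 10.2% and 11.5% in PLK1i. DNAJC25 (ENSG00000059769, GRCh37 chr9:114393614-114416631) was the 1 member of the whole group called higher after PLK1i. It had 370 reads in sh-CTL, 538 in METTL3-KD and 645 in PLK1i, with differences of 0.21 (0.02 to 0.40) and 0.46 (0.27 to 0.65). A readthrough transcript that joins it to GNG10 lies on the same strand, with 244, 345 and 327 reads, so part of its reads may be shared.

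DNAJC6 encodes auxilin, which with HSPA8 strips clathrin from vesicles. It had 335, 534 and 428 reads and was called higher in METTL3-KD at 0.34 (0.14 to 0.54), with 0.01 in PLK1i. The other vesicle-linked genes were lower than sh-CTL by less than the threshold in METTL3-KD: DNAJC5, the cysteine string protein, was at -0.22 and DNAJC13, an endosomal protein, at -0.17. In PLK1i these were at -0.10 and -0.09. The vesicle-linked list of 3 thus had 1 member higher and none lower in METTL3-KD, and none called in PLK1i.

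DNAJC22 had 252, 431 and 321 reads and was called higher in METTL3-KD at 0.44 (0.21 to 0.67), with 0.01 in PLK1i. DNAJC28, a mitochondrial member, had 49, 81 and 62 reads and passed the same threshold at 0.39, but its interval ran from -0.14 to 0.94. The rest of the mitochondrial list was within the threshold in both libraries. DNAJC19, a subunit linked to the import motor, was at -0.22 and 0.06, and DNAJC11 at -0.19 and -0.08. The neighbours of DNAJC19 on chromosome 3 had a median of -0.17 in METTL3-KD, and relative to them DNAJC19 stood at -0.05. DNAJC15 was at -0.11 and 0.00, and DNAJC30 at -0.08 and 0.06. DNAJC30 lies in a low stretch of chromosome 7 and turned to 0.38, past the threshold, in METTL3-KD once the median of its neighbours was subtracted. Over its 9 members the mitochondrial list had medians of -0.08 and 0.00.

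Among the endoplasmic reticulum members, DNAJC1 was called lower in METTL3-KD. It had 578, 529 and 765 reads and stood at -0.46 (-0.63 to -0.29) there and at 0.06 in PLK1i. The 50 genes around it on chromosome 10 had a median of -0.25, and relative to these DNAJC1 stood at -0.21 and was no longer called. DNAJC10, a disulfide reductase, had 3936, 5915 and 4964 reads and differed by 0.26 (0.20 to 0.31) and -0.01. DNAJC16 was at -0.27 and -0.09, and DNAJC18 at 0.12 and -0.12. The 8 members of this list had medians of -0.06 and -0.04, with 1 lower in METTL3-KD and 1, DNAJC25, higher in PLK1i.

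The nuclear and RNA-linked list held 5 members, of which DNAJC2 was called lower in METTL3-KD. DNAJC2, the ribosome-associated partner of HSPA14, had 4368, 4331 and 6599 reads and stood at -0.34 (-0.40 to -0.28) and 0.25 (0.20 to 0.31). It lies on chromosome 7, and its difference in METTL3-KD was -0.10 once the chromosome median was subtracted. DNAJC9, a histone chaperone, was at 0.13 and 0.02. DNAJC8, found in spliceosomes, was at 0.00 and 0.04, DNAJC17 at -0.13 and -0.01, and DNAJC21, a ribosome maturation factor, at -0.03 and 0.04. The 5 DNAJC genes in no list or call (DNAJC4, DNAJC7, DNAJC14, DNAJC24 and DNAJC27) ran from -0.28 to 0.19 in METTL3-KD and from -0.10 to 0.05 in PLK1i.

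Position on the chromosome went with several of the lower values in METTL3-KD. The chromosome 7 members were 4: HSPB1, DNAJB6, DNAJC2 and DNAJC30. All had neighbours below 0, with medians from -0.46 to -0.15. HSPA14 and DNAJC1 on chromosome 10 were also in low stretches, as was DNAJC19 on chromosome 3, with a neighbour median of -0.17. HSPA6 and DNAJB2 were not, with neighbour medians of 0.01 and -0.01, and HSPA4L had one of 0.00.

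**Figure D4:**
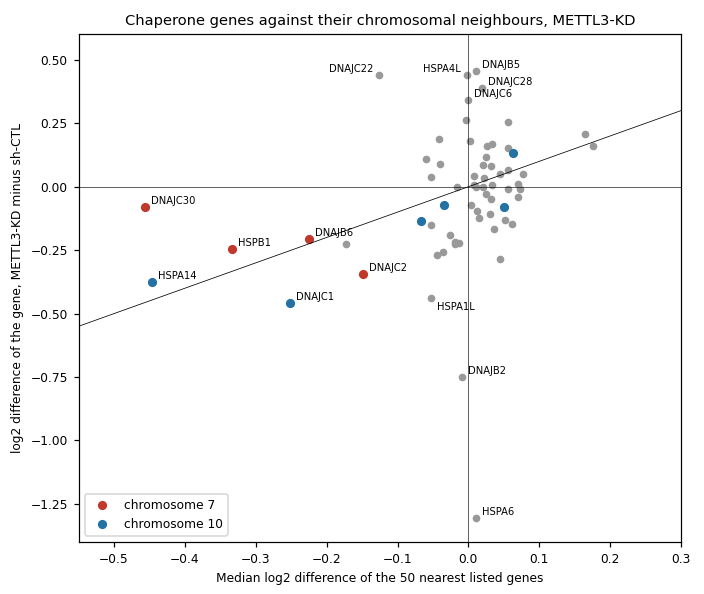
log2 difference of each of the 65 genes in METTL3-KD (vertical axis) against the median log2 difference of its 50 nearest listed genes (horizontal axis), 1 library per group; the diagonal marks equal values, and genes of chromosomes 7 and 10 are coloured. HSPA14, DNAJC1 and the chromosome 7 genes lie at the left, where neighbours were low, whereas HSPA6 and DNAJB2 lie low with neighbours near 0.

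The regulators differed little. HSF1, the master factor of the heat shock response, had 3249, 3889 and 4244 reads and differed by -0.07 (-0.14 to 0.00) and 0.04 (-0.02 to 0.11). BAG3, which couples HSP70 to autophagy and is itself heat-inducible, had 3650, 4372 and 5070 reads and differed by -0.07 and 0.13.

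A list of 15 members known as HSF1 targets that respond to heat was also read as a group. It holds HSPA1A, HSPA1B, HSPA6, HSPA8, HSPA4L, HSPH1, HSPB1, HSPD1, HSPE1, HSP90AA1, HSP90AB1, DNAJA1, DNAJB1, DNAJB4 and BAG3, so the constitutively abundant HSPA8 and HSP90AB1 are among them. In METTL3-KD, 1 was called higher (HSPA4L) and 1 lower (HSPA6), against 15.8% and 14.5% of all genes, with a median of 0.05. In PLK1i, 0 were called higher and 2 lower (HSPA1A and HSPA1B), against 10.2% and 11.5%, with a median of -0.01. HSPA1A and HSPA1B are near-identical copies and not separate observations. Beyond counting error in both comparisons, HSP90AA1, HSPD1 and DNAJB1 were above sh-CTL in METTL3-KD and below it in PLK1i, and HSPB1 and BAG3 had the opposite signs. In METTL3-KD, DNAJB1 was close to the median of its chromosomal neighbours, 0.18. HSPB1, at -0.25, was no lower than the median of its own, -0.33. HSPH1 and HSPA4L were above sh-CTL in both, and HSPA1A, HSPA1B and HSPA8 were below it in both. The METTL3-KD value of HSPA8, -0.01, turned to 0.01 under upper-quartile scaling and to 0.00 with its chromosome median subtracted. For HSPA6, HSPE1, HSP90AB1, DNAJA1 and DNAJB4 the interval included 0 in at least 1 comparison.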

How the data were processed

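Libraries were prepared with a stranded mRNA kit from ISOGEN-extracted RNA, 1 per group (sh-CTL, sh-METTL3, sh-CTL + PLK1i). For 14949 genes the authors deposited log2 expression in 1 table. The submitters' processing notes name FastQC 0.11.9, STAR 2.7.10, RSEM 1.3.3 and genome build hg19. The normalization was not given in the sources used here. The size factors recovered below nearly equalled those of the median of ratios, 0.858, 1.08 and 1.09. Scaling by the median of ratios was therefore hardly an alternative. The 3 columns were matched to samples through the abbreviations they carry.

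The low deposited log2 values followed log2 of a scaled read number plus 4. After this was undone, 1 read was worth 1.17, 0.927 and 0.921 in the 3 libraries (size factors 0.858, 1.08 and 1.09), and 100% of 10710, 9950 and 9848 values under 2000 reads lay within 0.1 of a whole number. Whole numbers could also be rounded estimates of RSEM. Larger values carry the rounding of the table to 4 decimals, so the highest read numbers are accurate to a few reads. A count test was not run, since no group had replicates. The highest library of each listed gene held no less than 0.503 CPM, and lower genes were not analysed here.

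Differences were taken between log2(normalized count + 1) values, which understates those of low genes. A minimum mean of 1 normalized count removed no gene, and no member had 3 reads or fewer in any library. Intervals were exact Clopper-Pearson intervals at 95%, conditional on the reads of both libraries; they cover counting error only, since amplified reads are not separate molecules. Positions, types and lengths came from GENCODE 44 mapped to GRCh37 (14858 genes placed), and start regions from RefSeq on GRCh38.p14. No proteins are shown. 4 members overlap another gene on their strand and 18 on the opposite strand.

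Named were all members outside the DNAJC family, the DNAJC genes called at a mean of at least 100 or in a compartment list, and others only by range. The values of 1 gene of the lists are not reported here. The members and lists were chosen with earlier results of these data known. Calls and folds were tested on simulated data first. Alternatives were a pseudocount of 0.5, the deposited log2 values, scaling to CPM, by the upper quartile or by the median of ratios, a minimum mean of 50, and subtraction of chromosome medians. Subtraction of the median of the 50 nearest genes and a minimum mean of 500 were added after the data were seen. Python 3.11.15, numpy 2.4.6, pandas 2.3.3, scipy 1.17.1, Biopython 1.88 (alignment of start regions) and matplotlib 3.10.9 were used.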

Additional observations from a re-analysis of the deposited data

How the results depend on the processing

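Of 72 counts of called members under the alternatives, 69 stayed within 1.5 times the count reported. The other 3 came from a minimum mean of 500 normalized counts, which leaves fewer genes: 1 member was then called higher and 0 were at least 2-fold lower in METTL3-KD, and 2 were called lower in PLK1i. For single members 1094 of 1142 values stayed within their counting interval and 47 moved beyond it. The 1 called value that turned its sign was HSPA14 in METTL3-KD, at 0.0696 after the median of its neighbours was subtracted. A minimum mean leaves a member's own value unchanged, and the median of ratios gave nearly the deposited size factors. Agreement under these settings was thus fixed in advance. Under upper-quartile scaling 8 of 130 values moved, under chromosome medians 14 of 130, and under neighbour medians 25 of 130 besides HSPA14. Among the 47, 13 values of members that were not called changed sign too, 1 of HSPA8 under upper-quartile scaling and the others under the subtraction of chromosome or neighbour medians: those of HSPB1, DNAJB6, DNAJC30, DNAJA1, DNAJB1, HSPA8 and CCT4 in METTL3-KD and of HSP90AB1 in PLK1i. DNAJC30 then reached 0.38. The calls of HSPA14, DNAJC1 and DNAJC2 in METTL3-KD were lost under that subtraction, that of DNAJC2 under the chromosome median too. The other 13 of the 16 calls held under each alternative that gave a value. Class medians stayed in 191 of 198 cases. No paired analysis was possible because each group held 1 library, and no library could be left out. Depth limited HSPA1L, HSPA6, HSPA2 and DNAJC28 most, with 35 to 129 reads.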

Other observations

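The partner genes of the chaperones were listed separately. None of the 12 nucleotide exchange factors and co-chaperones of HSP70 passed the threshold of 0.32 on the log2 scale in either comparison, with medians of -0.05 in METTL3-KD and 0.00 in PLK1i. GRPEL1, the mitochondrial exchange factor, had 2658, 3792 and 4047 reads in sh-CTL, METTL3-KD and PLK1i and differed by 0.18 and 0.27. HYOU1, the HSP110 of the endoplasmic reticulum, was at -0.24 and 0.00. Of the 13 HSP90 co-chaperones 1 was called, PTGES3, which encodes p23, the protein that clamps closed HSP90. PTGES3 had 12187 reads in sh-CTL, 10516 in METTL3-KD and 16341 in PLK1i, and stood at -0.54 (-0.58 to -0.51) in METTL3-KD and 0.08 in PLK1i. METTL3-KD was the low library, while CDC37, the kinase adaptor, was above sh-CTL there at 0.25 and AHSA1, the activator of the HSP90 ATPase, at 0.19.

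None of the 8 prefoldin and CCT helper genes, the 6 genes of mitochondrial protein quality control, the 5 other heat-inducible genes listed or the 3 heat shock factors and inhibitors listed passed the threshold in either comparison. CRYAB and HSF5 were not listed. TRAP1, the mitochondrial HSP90, was at -0.07 and -0.20. Of the 9 endoplasmic reticulum chaperones outside the symbol rule, DNAJB9 alone was called, at -0.43 (-0.62 to -0.25) in METTL3-KD with 524, 488 and 803 reads. It lies on chromosome 7. HSPA5, the endoplasmic reticulum HSP70 BiP, was at 0.19 and 0.16, and HSP90B1, its HSP90 partner, at 0.16 and -0.07.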
